A study of Mus musculus with 10 samples.

Results

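Ifnb1, the gene for interferon beta, was followed across bone marrow-derived macrophages of Atf3-/- and wild type mice, with and without LPS. It is measured by 1 of the 16860 gene-level probesets of the table, ENSMUSG00000048806, and was chosen by its measured levels on these arrays, which stood out after LPS in Atf3-/- cells. Its levels and the differences between its groups are therefore given as a description, with no test. RNA was labelled and read on Affymetrix mouse arrays, whose probesets are groups of short oligonucleotides, and values are on the log2 scale, so that a difference of 1 is a doubling.

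The 10 arrays fell into 4 groups. Atf3-/- macrophages given LPS had 2 arrays and Atf3-/- macrophages without LPS had 3. Wild type macrophages given LPS had 2 arrays and wild type macrophages without LPS had 3. All mice were labelled as female C57BL/6J aged 8 to 12 weeks, a label that was not checked here and that does not account for a division of the arrays described below. Cells had been grown from femoral marrow with recombinant human M-CSF at 50 ng/mL, the growth factor that drives marrow cells to become macrophages. They were replated on day 6, and LPS was added on day 7 at 10 ng/mL for 4 h, the single dose and time of the design. The labels give the genotype as Atf3-/- without describing the allele. Separate mice or cultures are not stated for the arrays within a group, so the labels do not say which sources of variation the spread between arrays covers.

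Interferon beta is a secreted type I interferon. Macrophages that sense LPS through Toll-like receptor 4 switch its gene on through the adaptor TRIF and the transcription factors IRF3 and NF-kB, and the burst of transcription is known to be early and short. The secreted protein acts back on the interferon receptor of the same and neighbouring cells and turns on antiviral genes. ATF3, the protein missing in the knockout cells, is a DNA-binding protein of the ATF/CREB type that LPS itself induces and that is known as a brake on inflammatory genes. The design asks how Ifnb1 responded to LPS at 4 h where this factor was present or missing.

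In RefSeq's mouse annotation Ifnb1 is a protein-coding gene on chromosome 4, at the edge of the type I interferon cluster. That chromosome holds 17 named type I interferon genes of this cluster, 13 of them numbered Ifna genes. The nearest protein-coding neighbours of Ifnb1 are Hacd4 on one side and Ifna15 on the other. Its promoter is shown because a knockout of a DNA-binding factor raises the question of which motifs lie there. The sequence is that of the 250 bases before the annotated start, from RefSeq on build GRCm38.p6, chr4:88522795-88523044, minus strand, with capitals on every match to the motifs searched.
Ifnb1 promoter: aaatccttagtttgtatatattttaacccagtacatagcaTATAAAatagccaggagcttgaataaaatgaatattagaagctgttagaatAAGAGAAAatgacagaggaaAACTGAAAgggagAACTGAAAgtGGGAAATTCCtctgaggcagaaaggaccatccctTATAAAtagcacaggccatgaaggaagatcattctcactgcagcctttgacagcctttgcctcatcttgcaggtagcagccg

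Both strands were searched, and the share of the 32851 RefSeq promoter windows of the same length with a match on either strand is given beside each motif. The interferon regulatory factor core AANNGAAA matched 3 times, and 21.3% of windows held it at least once. The NF-kB consensus matched once, upstream of the TATAAA nearest to the start, against 7.25% of windows. TATAAA, the letters of a TATA box, matched at 2 places, against 12.4% of windows. No match overlapped another. The full cAMP response element TGACGTCA (1.55% of windows), its core TGACG (17.8%) and the AP-1 motif TGANTCA (6.75%), which ATF-family and related factors are known to bind, had 0 matches in this window. Only these letters were searched, so a binding site that departs from them would not be counted, and 0 matches do not show that such sites are absent. These letter matches describe the sequence only, since binding was not measured.

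After LPS, Ifnb1 was high in Atf3-/- macrophages, while the wild type arrays with and without LPS overlapped. In wild type, LPS coincided with an on/off division of the arrays described below, and the effects of LPS and of that division cannot be told apart there. The Atf3-/- LPS arrays read 6.53 in replicate 1 and 8.38 in replicate 2. The Atf3-/- arrays without LPS read 4.08, 4.48 and 4.21. The wild type LPS arrays read 4.85 and 4.90, and the wild type arrays without LPS read 4.31, 4.71 and 4.87. Both Atf3-/- LPS arrays lay above all 8 other arrays, while the other groups lay close to each other.

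**Figure D1:**
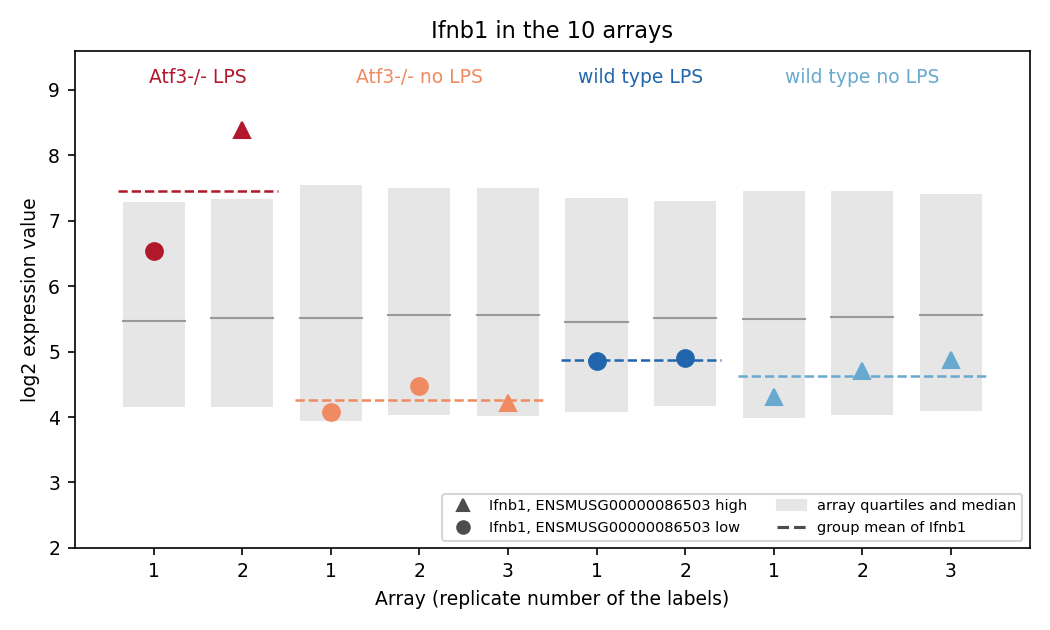
Ifnb1 log2 expression value in each of the 10 arrays (points, with the group mean as a dashed line), over the quartiles and median of all 16860 probesets on that array (grey boxes and lines). Triangles mark arrays with a high value of the on/off probeset ENSMUSG00000086503 and circles those with a low value. The Atf3-/- LPS arrays sit at 6.53 and 8.38, above the other 8 arrays, which sit between 4.08 and 4.90.

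The place of Ifnb1 among the probesets of its own array changed in the same way. It lay at percentiles 65.8 and 85.4 in Atf3-/- LPS arrays 1 and 2. In the Atf3-/- arrays without LPS it lay at percentiles 27.7, 33.4 and 28.5. In wild type it lay at percentiles 39.8 and 39.0 with LPS and at percentiles 31.2, 37.5 and 39.1 without LPS. It was thus above the array's median only in the Atf3-/- LPS arrays, by 1.06 and 2.87. In the other 8 arrays it was between 1.72 and 2.61 above the lowest probeset of the array. No detection calls were used, so it cannot be said whether those 8 values are transcript or background signal, and folds measured from them depend on the background correction.

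Ordered by mean level, Ifnb1 stood at 7.46 ± 1.31 (SD, n = 2) in Atf3-/- LPS cells, then at 4.88 ± 0.03 (SD, n = 2) in wild type LPS cells. Unstimulated wild type cells followed at 4.63 ± 0.29 (SD, n = 3), and unstimulated Atf3-/- cells were lowest at 4.25 ± 0.20 (SD, n = 3). Wild type cells with LPS and without LPS overlapped, as the highest unstimulated array (4.87) lay between the LPS arrays. The unstimulated Atf3-/- and wild type arrays also overlapped, the highest Atf3-/- array (4.48) lying above the lowest wild type array (4.31). Wild type LPS and unstimulated Atf3-/- arrays did not overlap.

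In the group means, LPS went with a log2 difference of 3.20 (SE 0.39, n = 2 and 3) in Atf3-/- cells, or 9.21-fold. In wild type cells the LPS difference was 0.25 (SE 0.39, n = 2 and 3). That standard error is shared over all groups and takes in the spread of the Atf3-/- LPS pair. It therefore does not measure the spread of the wild type arrays. With the on/off state described below as a covariate, the wild type LPS difference was 1.00 (SE 0.47). State and LPS coincide in wild type, so the shift to 1.00 comes from the Atf3-/- arrays alone and is no measured wild type response. The LPS response of Atf3-/- cells was larger than that of wild type cells by 2.96 on the log2 scale (SE 0.55), or by 2.08 (SE 0.61) with that covariate. The genotypes differed more with LPS than without. Atf3-/- minus wild type was 2.58 (SE 0.42, n = 2 each) with LPS, or 5.99-fold, and -0.37 (SE 0.35, n = 3 each) without LPS. With the on/off state as a covariate it was 2.21 (SE 0.40) with LPS and 0.13 (SE 0.37) without. The standard errors without LPS also take in the spread of the Atf3-/- LPS pair. The labels' protocols state that stimulation was checked by TNF in the supernatants. At a single time of 4 h the data do not show whether wild type Ifnb1 had been higher earlier.

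Set against all probesets, the response difference of Ifnb1 ranked 2nd of 16860 from the highest and 7th by size in either direction. From the highest, only ENSMUSG00000086503, the on/off probeset described below, ranked above it, at 7.01. The Atf3-/- minus wild type difference with LPS ranked 5th from the highest and 10th by size. The LPS response within Atf3-/- cells ranked 140th from the highest, so other probesets had larger LPS differences there. In wild type cells Ifnb1 ranked 4076th from the highest, and the median LPS difference of all probesets there was 0.02. Both Atf3-/- LPS arrays lay above the other 8 arrays in 1100 probesets, 6.52% of those measured. In 4 of the 16860, Ifnb1 among them, the lower Atf3-/- LPS array lay at least as far above the highest other array as it did for Ifnb1, where that distance was 1.64.

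The size of the difference rested on which Atf3-/- LPS array was read. Replicate 1 alone lay 2.28 above the mean of the Atf3-/- arrays without LPS, or 4.85-fold, and 1.66 above the wild type LPS mean, or 3.15-fold. Replicate 2 alone lay 4.13 above the Atf3-/- mean without LPS, or 17.5-fold, and 3.51 above the wild type LPS mean, or 11.4-fold. The direction was the same in both. The response difference was 2.03 without replicate 2 and 3.88 without replicate 1, and Ifnb1 ranked 3rd and 2nd of all probesets from the highest in these.

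**Figure D2:**
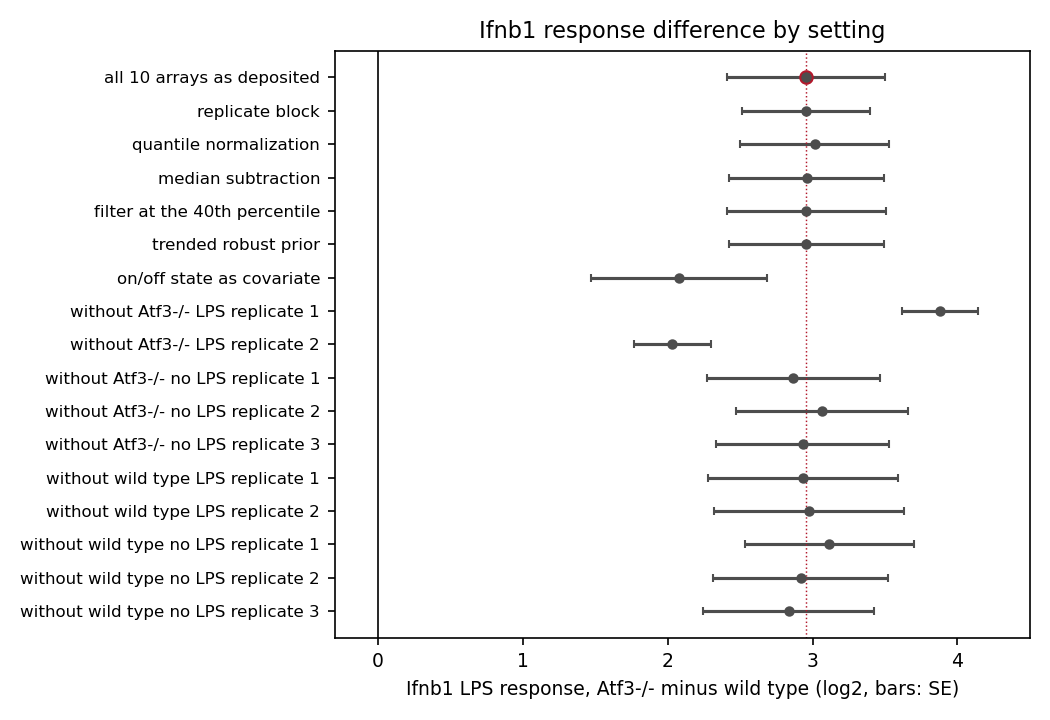
Ifnb1 LPS response in Atf3-/- minus that in wild type (log2, horizontal axis) with the standard error as bars, for the fit of all 10 arrays, for each other setting and with each array left out. The values range from 2.03 to 3.88, both reached by leaving out an Atf3-/- LPS array, and all lie above 0.

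The gap between the Atf3-/- LPS arrays was large beside that of other probesets in the same pair. Replicate 2 exceeded replicate 1 by 1.85 for Ifnb1, or 3.60-fold, whereas the wild type LPS arrays differed by 0.04. Over all probesets the gap of the Atf3-/- LPS pair had a median of 0.01 and an SD of 0.29, and 111 probesets, 0.66%, differed by 1 or more in either direction. The gap of Ifnb1 was the 2nd highest of 16860, after the 5.68 of ENSMUSG00000086503, and ranked 6th by size in either direction. Its residual SD over the 4 groups was 0.57, against a median of 0.14 over all probesets, and 19 probesets including Ifnb1 had one as large. The standard errors above take the spread as equal in all groups. For Ifnb1 it was not, since the SD was 1.31 in the Atf3-/- LPS pair and 0.03 to 0.29 in the other groups.

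Most probesets that were strongly higher with LPS in wild type cells had the opposite order in the Atf3-/- LPS pair. Among the 487 probesets with at least a 4-fold LPS increase in the wild type means, 24.0% were higher in Atf3-/- LPS replicate 2 than in replicate 1, with a median gap of -0.24. Over all probesets 52.8% were higher in replicate 2. The array with the highest Ifnb1 was thus the one with the lower values for most of these 487 probesets. In wild type, LPS coincided with the on/off division described below, so the choice of the 487 reflects both. The same division separates the Atf3-/- LPS pair, and its part in this order was not tested.

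**Figure D3:**
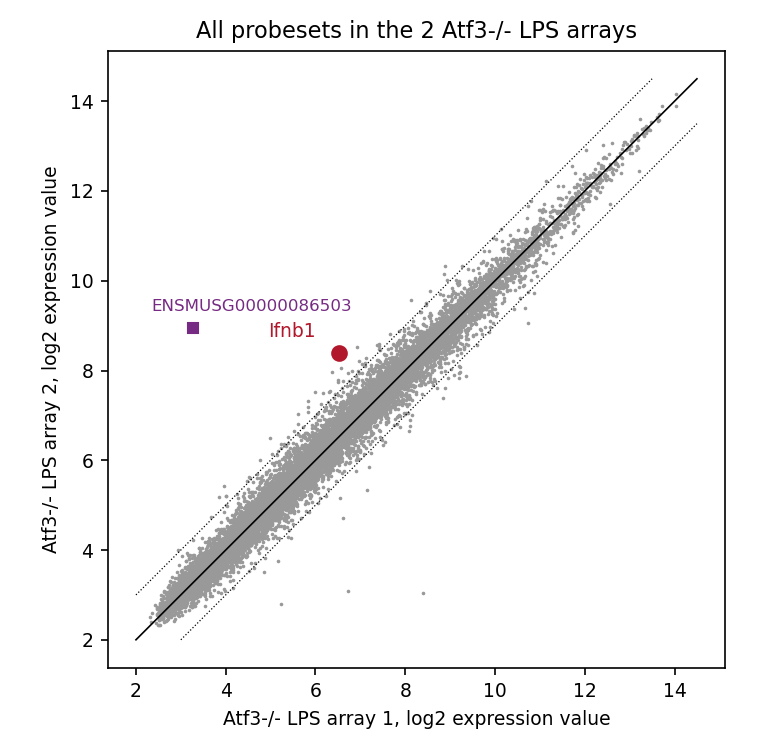
Log2 expression value of all 16860 probesets in Atf3-/- LPS replicate 1 (horizontal axis) and replicate 2 (vertical axis), with the line of equality and dotted lines at a difference of 1. Ifnb1 lies 1.85 above the line of equality, farther above it than any probeset except ENSMUSG00000086503 at 5.68.

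The arrays carried a division that cuts across the groups and separates the Atf3-/- LPS pair. ENSMUSG00000086503 was between 8.95 and 9.57 in 5 arrays and between 2.94 and 3.76 in the other 5. ENSMUSG00000069045, ENSMUSG00000068457 and ENSMUSG00000069049 ran the opposite way in the same arrays. These probesets were picked after their values had been seen, and the files pair none of them with a gene name. The labels give the same sex, strain and age for all 10 arrays, so that they record nothing that matches this division, and arrays labelled alike differed in it. Whether the labelled sex holds for each of the 10 arrays was not tested. Within the Atf3-/- LPS group the difference in ENSMUSG00000086503 was 5.68, against an SD of 0.29 over all probesets of that pair. Atf3-/- LPS replicate 2 and unstimulated Atf3-/- replicate 3 were in the high state, as were all 3 unstimulated wild type arrays. Atf3-/- LPS replicate 1, unstimulated Atf3-/- replicates 1 and 2 and both wild type LPS arrays were in the low state. In wild type cells the state and LPS cannot be told apart, since 0 of 2 arrays with LPS and 3 of 3 without were in the high state.

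Within each state Ifnb1 was higher in the Atf3-/- LPS array than in Atf3-/- cells without LPS. No wild type LPS array was in the high state, so the genotypes after LPS could be compared only in the low state. In the high state the Atf3-/- array with LPS stood at 8.38 and the one without LPS at 4.21, a difference of 4.17. In the low state the Atf3-/- array with LPS stood at 6.53, against a mean of 4.28 in the 2 without LPS and 4.88 in the 2 wild type LPS arrays, differences of 2.25 and 1.66. Among unstimulated arrays of the high state, the Atf3-/- array was at 4.21 and the wild type mean at 4.63. In the fit with the state as a covariate, only the Atf3-/- arrays, with the gap of their LPS pair, inform the state's term, which then applies 1 value to both genotypes. The part of the state in the gap between the Atf3-/- LPS arrays was not tested.

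Probesets with a profile like that of Ifnb1 were sought over the 10 arrays, among the 4757 others whose highest and lowest array differed by at least 1. Pearson's correlation with Ifnb1 was at least 0.9 for 15 of them and at most -0.9 for another 15. These correlations share the same arrays and groups, rest largely on the Atf3-/- LPS pair and carry no p-value. ENSMUSG00000037406 was most alike, with r = 0.97 over 10 arrays and r = 0.83 over the 8 arrays outside the Atf3-/- LPS group. It read 5.18 and 5.82 in Atf3-/- LPS arrays 1 and 2, against 3.24 to 3.53 in unstimulated Atf3-/- arrays. In wild type it read 3.97 and 3.76 with LPS and 3.12 to 3.62 without. It shared with Ifnb1 the high Atf3-/- LPS values and the order of that pair, but the pair lay closer together.

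ENSMUSG00000018916 came next, with r = 0.96 over 10 arrays and 0.63 over the other 8. It read 7.03 and 7.96 in the Atf3-/- LPS arrays and 5.21 to 5.84 in unstimulated Atf3-/- arrays. In wild type it read 5.87 and 6.18 with LPS and 5.39 to 5.81 without, so that there the groups did not overlap. The most opposite profiles were those of ENSMUSG00000027176, with r = -0.98 over 10 arrays and -0.80 over the other 8, and of ENSMUSG00000039981, with r = -0.97 and -0.66. ENSMUSG00000027176 read 7.48 and 7.06 in the Atf3-/- LPS arrays, against 8.07 to 8.25 in unstimulated Atf3-/- arrays, and lay between 7.85 and 7.99 in all 5 wild type arrays. Both opposite probesets had their lowest values in the Atf3-/- LPS arrays, and lowest of all in replicate 2.

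**Figure D4:**
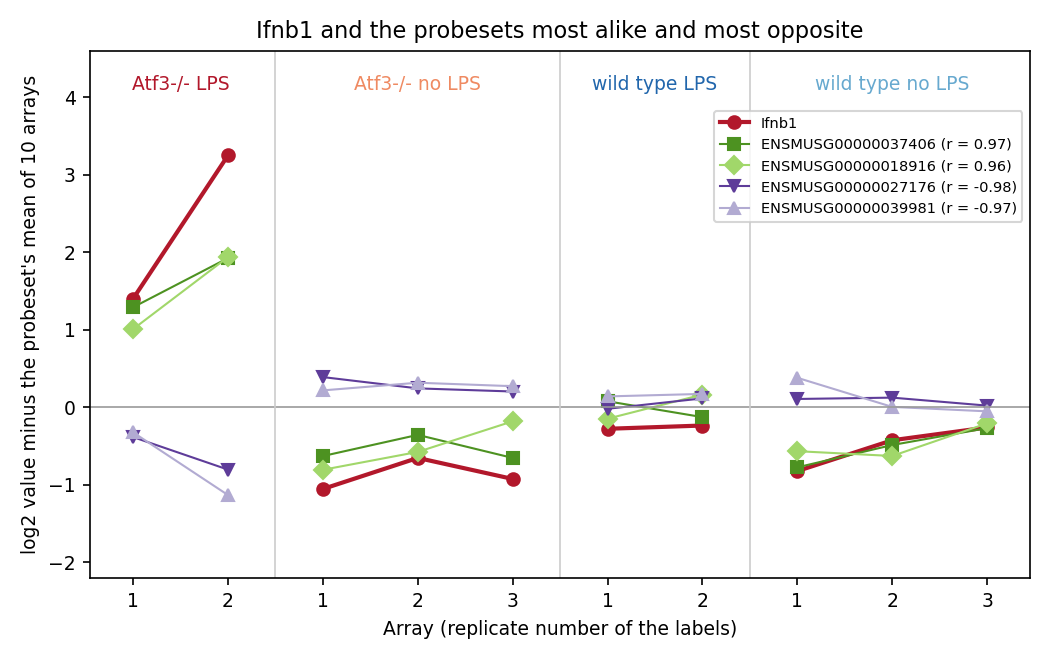
Log2 value of Ifnb1 and of the probesets most alike and most opposite to it in each of the 10 arrays, each minus the probeset's own mean over the 10 arrays; lines join arrays of a group. In Atf3-/- LPS replicates 1 and 2 Ifnb1 stands 1.40 and 3.25 above its mean, and ENSMUSG00000037406 stands 1.29 and 1.93 above its own.

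The files identify probesets by Ensembl ID, and 0 of these IDs were found in the reference tables, so the level of Atf3, the markers of macrophages and other cells, and the other genes of the interferon pathway were not analysed here. The genotype labels and the cell type therefore rest on no measured check. Over the 10 arrays the median of all probesets ranged from 5.45 to 5.56, and the lowest value from 2.26 to 2.41.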

How the data were processed

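The series' value table holds log2 expression values, which the authors deposited as 1 value per gene-level probeset for each of 10 arrays. Per the series' design text, the arrays came from an earlier study and the probe intensities were re-processed with CustomCDF probesets of version 13, which group probes by Ensembl gene. Per the submitters' processing notes affy 1.26.1 was used. How background was corrected, arrays were normalized and probes were summarised is not given in the sources used here. Depth does not apply to arrays, and their number limits the precision.

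All 16860 probesets were fitted with 1 mean per group by lmFit and eBayes of limma 3.58.1 (R 4.3.3), with 6 residual degrees of freedom. The fit gave 5 differences and standard errors for Ifnb1, and was tested on simulated data. The gene, the gene lists and the tests were chosen with earlier results of these data known. Likeness was Pearson's correlation among probesets with a range of at least 1. The rule for named genes gave Ifnb1, Atf3, members of 6 pathway lists and up to 10 like probesets in each direction. Without gene names for the IDs, Atf3 and the lists could not be run, and 2 IDs per direction were named. IDs of the on/off probesets and of single ranks fall outside this rule and were chosen after their values were seen. Motifs were searched in RefSeq promoter windows.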

Additional observations from a re-analysis of the deposited data

Results flagged for a closer look

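The LPS response of Ifnb1 (ENSMUSG00000048806) differed between the genotypes by 2.96 on the log2 scale, Atf3-/- minus wild type, by the interaction term of the limma fit over all probesets. The gene was chosen by this pattern, so the term adds no independent support. Both Atf3-/- LPS arrays were above all 3 unstimulated Atf3-/- arrays, while the wild type arrays with and without LPS overlapped. No group held enough arrays for a search for single outlying arrays.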

How the results depend on the processing

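Under other settings of the fit, 28 values of the Ifnb1 differences moved by less than the residual SD of 0.57. The 2 exceptions came with the on/off state as a covariate, where the response difference was 2.08 and the wild type LPS difference 1.00. Both shifts come from the state's term, which only the Atf3-/- arrays inform and which was applied to wild type too. Whether the state acts alike in both genotypes was not tested. The unstimulated Atf3-/- minus wild type difference was 0.13 in that fit, of opposite sign to the -0.37 given above. With 1 array left out at a time, the LPS difference ranged from 2.28 to 4.13 in Atf3-/- cells and from 0.09 to 0.37 in wild type cells. The response difference ranged from 2.03 to 3.88. Atf3-/- minus wild type ranged from 1.66 to 3.51 with LPS and from -0.53 to -0.25 without LPS. A group left with 1 array was assumed to vary like the others. Quantile normalization gave a response difference of 3.01. Arrays of the same replicate number in different groups deviated together with r over 0.1 in 7 of 13 pairs (-0.07 to 0.30). Arrays of unlike number were not compared, so these values do not settle whether the numbers pair the arrays. The main fit left the numbers out. With the replicate block the LPS difference was 3.25 in Atf3-/- cells and 0.30 in wild type cells, the response difference 2.96, and Atf3-/- minus wild type 2.58 with LPS and -0.37 without. Among the 4 likeness values, Spearman's rho was 0.90 for ENSMUSG00000037406 and 0.81 for ENSMUSG00000018916, and -0.83 and -0.81 for the opposite pair. The counts over pathway lists were not run, as the IDs could not be named. Signal near the arrays' lower end limits every difference measured from the 8 low Ifnb1 values.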
